A study of Mus musculus with 15 samples.

Results

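The genes described here build the nuclear pore and carry cargo through it: nucleoporins, importins, exportins and the enzymes of the Ran cycle. They were taken by symbol from the authors' normalized table (Nup, Kpna or Kpnb, Ipo, Xpo and Tnpo followed by their number or letter, together with Ran, Rcc1, Rangap1, Ranbp1, Pom121, Tpr, Ndc1 and Cse1l, of which Ndc1 stands in the table under another symbol). This gave 48 of the 19233 genes tested: 22 nucleoporins, 22 transport receptors and 4 genes of the Ran cycle. All 48 passed the filter on dim probes, and 40 were well above background on all 15 arrays. The symbol rule itself used no measured value, but the genes were chosen with earlier results of these data known.

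RNA came from livers of FVB/N mice in which a MYC transgene is switched on in the liver by taking doxycycline out of the chow. The mice carry LAP-tTA, a tetracycline-controlled activator under a promoter active in hepatocytes, and all but the controls also carry TRE-MYC, the MYC transgene it turns on. All mice ate chow with doxycycline at 200 mg/kg until they were older than 8 weeks. The regression group (4 arrays) was liver tumor tissue of LAP-tTA x TRE-MYC mice taken off doxycycline for 8 to 9 weeks and then put back on it for 72 h. The tumor group (4 arrays) was tumor nodules of the same genotype after 8 to 9 weeks off doxycycline. The pre-tumor group (4 arrays) was liver of that genotype after 4 to 5 weeks off, with no tumor present. The control group (3 arrays) was liver of mice with LAP-tTA alone, for which the labels give no time off doxycycline. The series' design text counts 11 samples in total, while its groups sum to 15.

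The nuclear pore is a ring-shaped assembly through which proteins and RNAs pass between nucleus and cytoplasm. Scaffold nucleoporins form its outer and inner rings, membrane nucleoporins anchor it, and nucleoporins rich in phenylalanine and glycine line the channel. Importins and exportins carry cargo through that channel, and the small GTPase Ran sets the direction: Rcc1 loads Ran with GTP in the nucleus, and Rangap1 with Ranbp1 has it hydrolyse that GTP in the cytoplasm.

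Values are log2 signals of 1 probe per gene on 1-colour Agilent arrays, with 0 at the 75th percentile of each array. They show the same gene across samples and give no order of level between genes. Between 46.4% (tumor 3) and 90.8% (pre-tumor 4) of gene spots were well above background, and precision is limited by how few arrays a group holds. The labels do not say that the arrays of a group came from separate animals, so the p-values measure only the spread between these samples. The labels could be checked against Myc, whose 3 passing probes differed: the probe with the widest range spanned -0.82 to -0.10 in regression, 3.65 to 4.81 in tumor, 0.09 to 2.50 in pre-tumor and -1.63 to -0.23 in control samples. Its log2 difference was -4.65 in regression against tumor and 5.16 in tumor against control. The other Myc probes gave -1.1 and -1.18 in tumor against control, neither past the threshold. Of these, 1 was higher in regression than in tumor (1.65, adjusted p = 0.0127) and lower in tumor than in pre-tumor samples (-1.27, adjusted p = 0.0435). The first probe was picked by its range on these same arrays, so it is no independent check of the labels. The 15 arrays lay on 4 slides with at most 1 array of a group on each, so the groups could also be compared within a slide. Control-spot signals for E1A were higher on control 1, pre-tumor 1, pre-tumor 4 and tumor 4 (medians of 25.6 to 76.1) than on the other 11 arrays (2.58 to 10.4), and the count without those 4 arrays, an alternative chosen after seeing the data, is given with each comparison.

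The hexamer CACGTG, the E-box that MYC binds with its partner MAX, was looked for in the 250 bases before the start of each gene, since MYC is the transgene of this model. RefSeq promoter sequences (GRCm38.p6) were matched for 38 of the 48 genes. Not matched were Cse1l, Kpna1, Kpna3, Kpna6, Nup210l, Nup35, Nup43, Nup85, Xpo4 and Xpo7. CACGTG reads the same on both strands, and 7 of the 38 genes held it (18.4%), against 6.86% of 27025 genes with a window of this length. It stood in 4 of the 25 matched genes that were higher in tumor than in control samples (16%) and in 3 of the 13 other matched genes (23.1%). The 4 higher ones are shown, with Nup188, which holds the hexamer at 2 places, and capitals mark the hexamer. Not shown are Tnpo2, which also holds the hexamer at 2 places, and Nup54, neither of them called higher in tumor than in control samples. Nup188 is counted among the others because its brightest probe was not higher. Another of its probes gave 2.48 in tumor against control and was called. With the mean of all its probes Nup188 was called higher as well (1.08, adjusted p = 0.0107), so the 2 shares depend on the choice of probe. The windows are chr8:94214314-94214563 (plus strand) for Nup93, chr5:129019906-129020155 (plus) for Ran, chr10:121626333-121626582 (minus) for Xpot, chr7:110018065-110018314 (plus) for Ipo7 and chr2:30286166-30286415 (plus) for Nup188, each printed 5′ to 3′ on the gene's strand.
Nup93: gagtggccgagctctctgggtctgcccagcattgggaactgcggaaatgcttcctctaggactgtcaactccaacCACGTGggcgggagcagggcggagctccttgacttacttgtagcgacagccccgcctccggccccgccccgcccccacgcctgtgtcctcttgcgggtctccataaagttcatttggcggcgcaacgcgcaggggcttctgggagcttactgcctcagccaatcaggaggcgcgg
Ran: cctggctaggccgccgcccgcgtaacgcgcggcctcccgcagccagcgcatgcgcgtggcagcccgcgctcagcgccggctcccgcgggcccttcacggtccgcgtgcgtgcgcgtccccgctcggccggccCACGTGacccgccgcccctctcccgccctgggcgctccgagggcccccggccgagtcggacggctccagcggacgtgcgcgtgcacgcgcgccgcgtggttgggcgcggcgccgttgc
Xpot: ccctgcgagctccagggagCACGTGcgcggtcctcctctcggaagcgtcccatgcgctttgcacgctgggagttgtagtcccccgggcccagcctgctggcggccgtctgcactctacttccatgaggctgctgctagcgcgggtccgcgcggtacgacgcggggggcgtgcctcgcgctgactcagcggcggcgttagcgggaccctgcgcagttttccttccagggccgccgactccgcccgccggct
Ipo7: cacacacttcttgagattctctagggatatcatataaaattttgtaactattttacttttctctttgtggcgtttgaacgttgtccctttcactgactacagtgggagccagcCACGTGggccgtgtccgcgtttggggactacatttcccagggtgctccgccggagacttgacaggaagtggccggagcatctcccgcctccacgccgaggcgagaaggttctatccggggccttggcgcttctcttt
Nup188: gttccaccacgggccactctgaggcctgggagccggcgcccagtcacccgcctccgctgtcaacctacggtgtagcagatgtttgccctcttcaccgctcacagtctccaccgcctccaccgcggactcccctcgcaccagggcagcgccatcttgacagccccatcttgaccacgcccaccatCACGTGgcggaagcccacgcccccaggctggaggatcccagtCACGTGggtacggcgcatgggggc

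Other motifs were searched on both strands in the same windows. CACGCG or its reverse complement CGCGTG was found before 12 of the 38 genes (31.6%, against 8.65% of all genes), and in 28% of the genes higher in tumor and 38.5% of the others. CCAAT or ATTGG, the box of the factor NF-Y, was found before 18 (47.4%, against 37.5%), in 48% and 46.2% of the same 2 sets. The core of the site of the factor NRF1 was found before 6 (15.8%, against 4.23%), in 5 of the 25 and 1 of the 13. A gene is counted once per motif, and overlaps between motifs were not removed. A match describes the letters of a window only.

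Nuclear pore and transport genes were higher in tumor nodules than in control livers. Of the 48 genes, 29 rose in tumor (limma, adjusted p under 0.05) and none fell, a share of 60.4% where 9.42% of all 19233 genes rose and 16.4% changed in either direction. The median log2 difference of the 48 was 1.39, against -0.18 over all genes, and is the same with Nup107 and Nup205 at the bounds given below. All 29 rose by 2-fold or more. By the measured means 14 rose by 4-fold or more, among them Nup107, whose bound is lower. All 4 tumor arrays lay above all 3 control arrays for 33 of the 48 genes, which held for 13.7% of all genes. The number of calls was 19 without control 3 and 22 with slide as a term in the model. Without the 4 arrays with high E1A signals it was 24, with the calls of Ipo7, Kpna2, Nup153, Xpo1 and Xpo5 ended. On the scale with normexp background correction, which adds an offset of 50 to the signal, the median over the 48 genes was 0.77 with 31 calls. Within the 3 slides that held both groups, the median difference of the 48 genes was between 0.95 and 1.65.

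**Figure D1:**
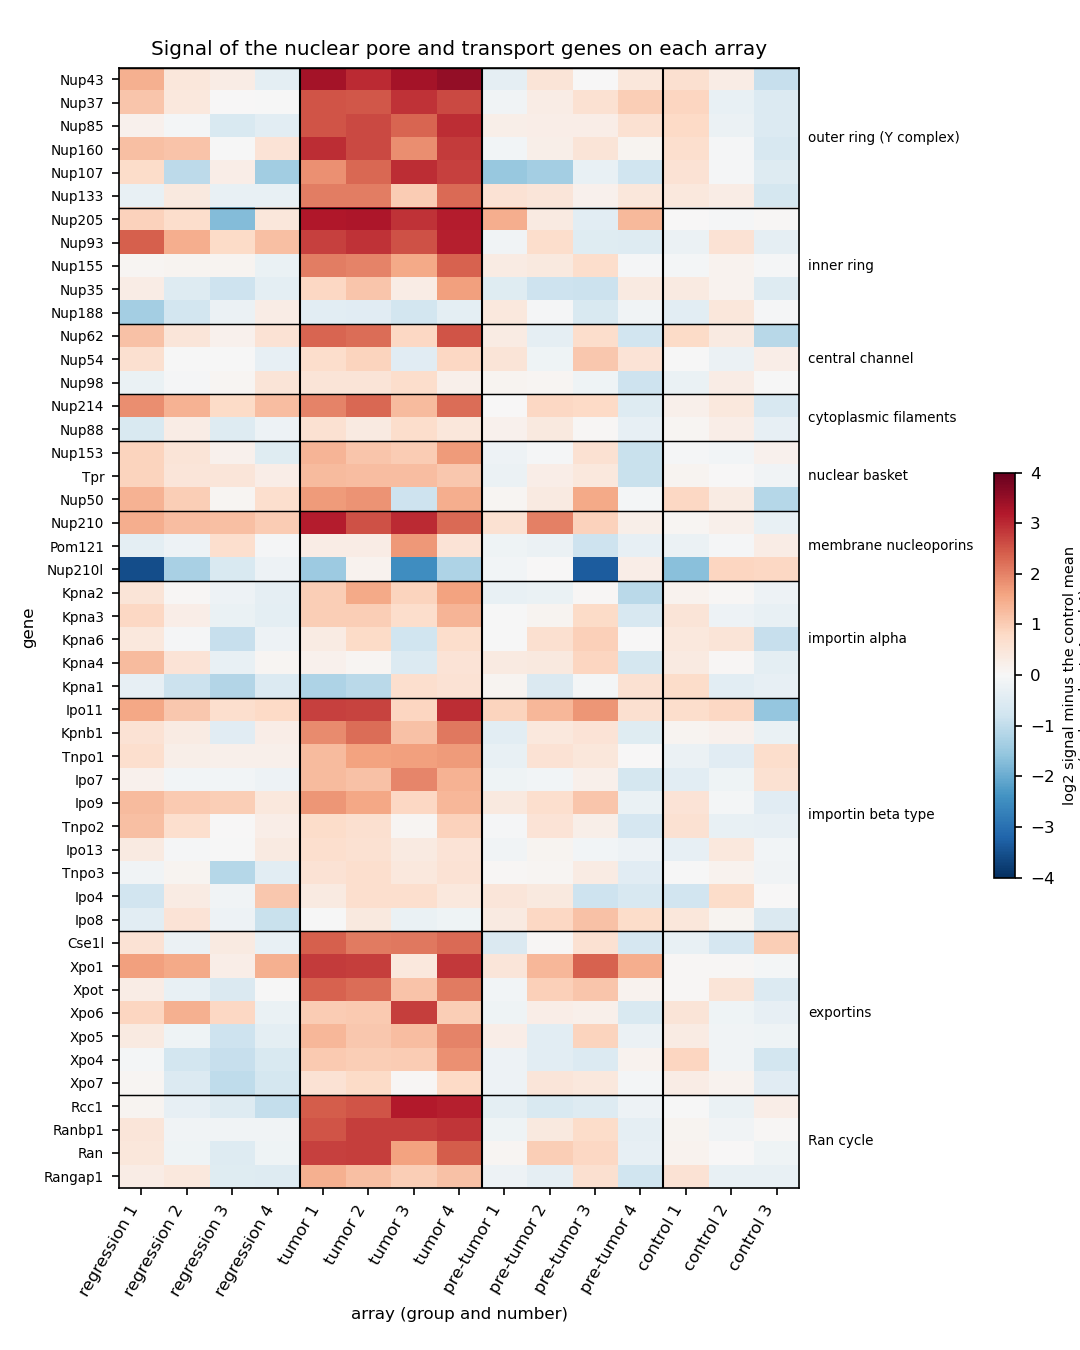
The heat map shows the log2 signal of each of the 48 genes (rows, grouped by role) on each of the 15 arrays (columns), minus the mean of the 3 control arrays of that gene. The 4 tumor columns stand out in the outer ring and Ran cycle rows and in Nup205, Nup93 and Nup155, with Nup43 at 3.29 above the control mean, while most importin alpha rows are near 0.

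Markers of dividing cells moved with these genes in tumor against control and in regression against tumor, and less so in regression against control. In the last, 4 of 8 markers were called higher (median log2 difference 1.20), as was 1 of the 48 genes (median 0.08) and 5.12% of all genes. Of all genes 9.42% rose and 7.01% fell in tumor against control, and 8.45% rose and 8.37% fell in regression against tumor. All 8 markers measured (Mki67, Top2a, Birc5, Ccnb1, Cdk1, Cenpa, Bub1 and Plk1) rose in tumor against control and all 8 fell in regression against tumor. Their summed linear signal, in multiples of the 75th percentile, was 6.99 to 8.70 in regression, 87.7 to 153 in tumor, 3.11 to 6.95 in pre-tumor and 2.09 to 6.25 in control samples. Of 7 hepatocyte markers measured, 6 fell in tumor against control and 5 rose in regression against tumor, with summed signals of 535 to 2495 in regression, 212 to 776 in tumor, 1223 to 3952 in pre-tumor and 1945 to 2227 in control samples. Each of the 7 was well above background on at least 1 array of every group, while 2 of the dividing-cell markers were above it on no regression array and 1 each on no pre-tumor and no control array. In whole tissue, fewer cells of a type and less RNA per cell cannot be told apart. The part that either cell population has in the differences was not tested.

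All 4 genes of the Ran cycle rose in tumor and fell in regression. Rcc1, the chromatin-bound exchange factor that loads Ran with GTP, had log2 signals of -1.05, -1.49, -1.70 and -2.11 in regression, 1.26, 1.35, 2.00 and 1.95 in tumor, -1.55, -1.78, -1.67 and -1.39 in pre-tumor and -1.19, -1.42 and -0.90 in control samples. Every tumor array was above 1 and every other array below -0.8, so that no group overlapped with tumor. The difference was -3.23 ± 0.31 (SE) in regression against tumor (adjusted p = 8.32e-06) and 2.81 ± 0.33 in tumor against control (adjusted p = 1.95e-05), a 7.01-fold rise.

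Ran itself, the GTPase, had log2 signals of 3.36, 2.72, 2.39 and 2.73 in regression, 5.64, 5.69, 4.51 and 5.34 in tumor, 2.99, 3.89, 3.74 and 2.58 in pre-tumor and 3.05, 2.93 and 2.75 in control samples. Tumor 3 was the lowest of the tumor arrays and still lay above every array of the other groups. Ran was 5.22-fold higher in tumor than in control samples (log2 2.39 ± 0.40, adjusted p = 0.000535) and changed by -2.50 ± 0.37 in regression (adjusted p = 0.000307). Ranbp1, which helps release RanGTP from transport receptors, showed the tightest tumor group of the 4, with 0.48, -0.15, -0.16 and -0.14 in regression, 2.52, 2.75, 2.77 and 2.84 in tumor, -0.19, 0.38, 0.73 and -0.37 in pre-tumor and 0.10, -0.15 and 0.03 in control samples. The tumor arrays stood more than 1.5 above all others, and the difference was -2.71 ± 0.30 in regression against tumor and 2.73 ± 0.32 in tumor against control (adjusted p = 3.13e-05 and 2.16e-05).

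Rangap1, the GTPase-activating protein of the cytoplasmic side, had the smallest differences of the 4. Its log2 signals were 3.11, 3.23, 2.33 and 2.31 in regression, 4.22, 4.01, 3.80 and 3.98 in tumor, 2.61, 2.45, 3.44 and 2.02 in pre-tumor and 3.39, 2.52 and 2.53 in control samples. Tumor arrays were again the highest, with control 1 and pre-tumor 3 nearest to them. The rise was 1.19 ± 0.39 (adjusted p = 0.0472) and the change in regression -1.26 ± 0.36 (adjusted p = 0.0233). The first call ended when any array other than control 1, pre-tumor 3, pre-tumor 4 and regression 1 was left out (adjusted p 0.0527 to 0.155), and the second without tumor 1, tumor 2, regression 3 or regression 4 (0.0543 to 0.0766).

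The 6 outer ring genes with a Nup symbol rose in tumor and fell in regression. The outer ring is the Y-shaped scaffold that also sits at kinetochores in mitosis. Its members Sec13 and Seh1l, which the symbol rule does not take, were called in neither comparison, with -0.21 ± 0.30 and -0.74 ± 0.39 in regression against tumor (adjusted p = 0.786 and 0.264) and 0.10 ± 0.33 and 0.29 ± 0.43 in tumor against control (adjusted p = 0.881 and 0.708). Apart from Nup107, for which only a bound can be given, the log2 differences of the Nup genes in tumor against control ran from 1.84 to 3.29. Nup43 had 0.38, -0.58, -0.75 and -1.45 in regression, 2.27, 1.94, 2.29 and 2.46 in tumor, -1.42, -0.53, -1.02 and -0.58 in pre-tumor and -0.42, -0.76 and -1.97 in control samples. Tumor arrays lay at 1.94 or more and no other array reached 0.5. Nup43 rose 9.78-fold (log2 3.29 ± 0.45, adjusted p = 7.96e-05) and changed by -2.84 ± 0.41 in regression (adjusted p = 0.000272).

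Nup85 had 0.13, -0.13, -0.66 and -0.47 in regression, 2.46, 2.60, 2.28 and 2.90 in tumor, 0.20, 0.22, 0.23 and 0.57 in pre-tumor and 0.75, -0.27 and -0.60 in control samples. Tumor arrays were all above 2 and all others below 0.8. The differences were -2.85 ± 0.33 in regression against tumor and 2.60 ± 0.35 in tumor against control (adjusted p = 4.25e-05 and 7.71e-05). Nup37 had -0.51, -1.19, -1.62 and -1.65 in regression, 0.90, 0.86, 1.27 and 1.03 in tumor, -1.75, -1.32, -1.0 and -0.62 in pre-tumor and -0.77, -1.92 and -2.17 in control samples. Only the tumor arrays were above 0, and the differences were -2.26 ± 0.38 in regression against tumor and 2.64 ± 0.41 in tumor against control (adjusted p = 0.000726 and 0.000263).

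Nup160, which forms 1 arm of the Y with Nup37 while Nup85 and Nup43 lie in the other, had -0.23, -0.27, -1.45 and -0.89 in regression, 1.54, 1.21, 0.44 and 1.37 in tumor, -1.54, -1.18, -0.90 and -1.33 in pre-tumor and -0.75, -1.46 and -2.05 in control samples. Tumor 3 was again lowest in its group and stayed above the highest array of any other group, regression 1. The differences were -1.85 ± 0.38 in regression against tumor and 2.56 ± 0.41 in tumor against control (adjusted p = 0.00295 and 0.000339). Nup133, at the stalk of the Y, had -1.76, -1.05, -1.77 and -1.74 in regression, 0.60, 0.58, -0.46 and 0.81 in tumor, -0.89, -0.98, -1.29 and -1.0 in pre-tumor and -1.05, -1.16 and -2.17 in control samples. Tumor and other arrays did not overlap, with tumor 3 closest to the pre-tumor arrays. The differences were -1.96 ± 0.35 in regression against tumor and 1.84 ± 0.38 in tumor against control (adjusted p = 0.00119 and 0.00277).

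Nup107, the stalk partner of Nup133, was dim. It met the filter of at least 3 arrays well above background only through the tumor arrays, the group in which it was higher. It is still counted among the genes called. Its probe was well above background on 1 of 4 regression, 4 of 4 tumor, 0 of 4 pre-tumor and 0 of 3 control arrays, with log2 signals of -3.08, -4.88, -3.56 and -5.21 in regression, -2.0, -1.53, -0.87 and -1.09 in tumor, -5.34, -5.19, -4.12 and -4.63 in pre-tumor and -3.24, -3.88 and -4.35 in control samples. With each control or pre-tumor array set to the weakest signal that still counted as above background there, Nup107 was at least 2.81-fold higher in tumor than in control samples (adjusted p = 0.00330) and at least 4.39-fold higher than in pre-tumor samples (adjusted p = 7.55e-05). It was lower in regression than in tumor (adjusted p = 0.000833), with no size given because 1 regression array measured it. The bound sets the means of normalized log2 values against each other, and the measured means were -1.37 ± 0.50 in tumor, -4.82 ± 0.56 in pre-tumor and -3.82 ± 0.56 in control samples (SD, n = 4, 4 and 3).

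**Figure D2:**
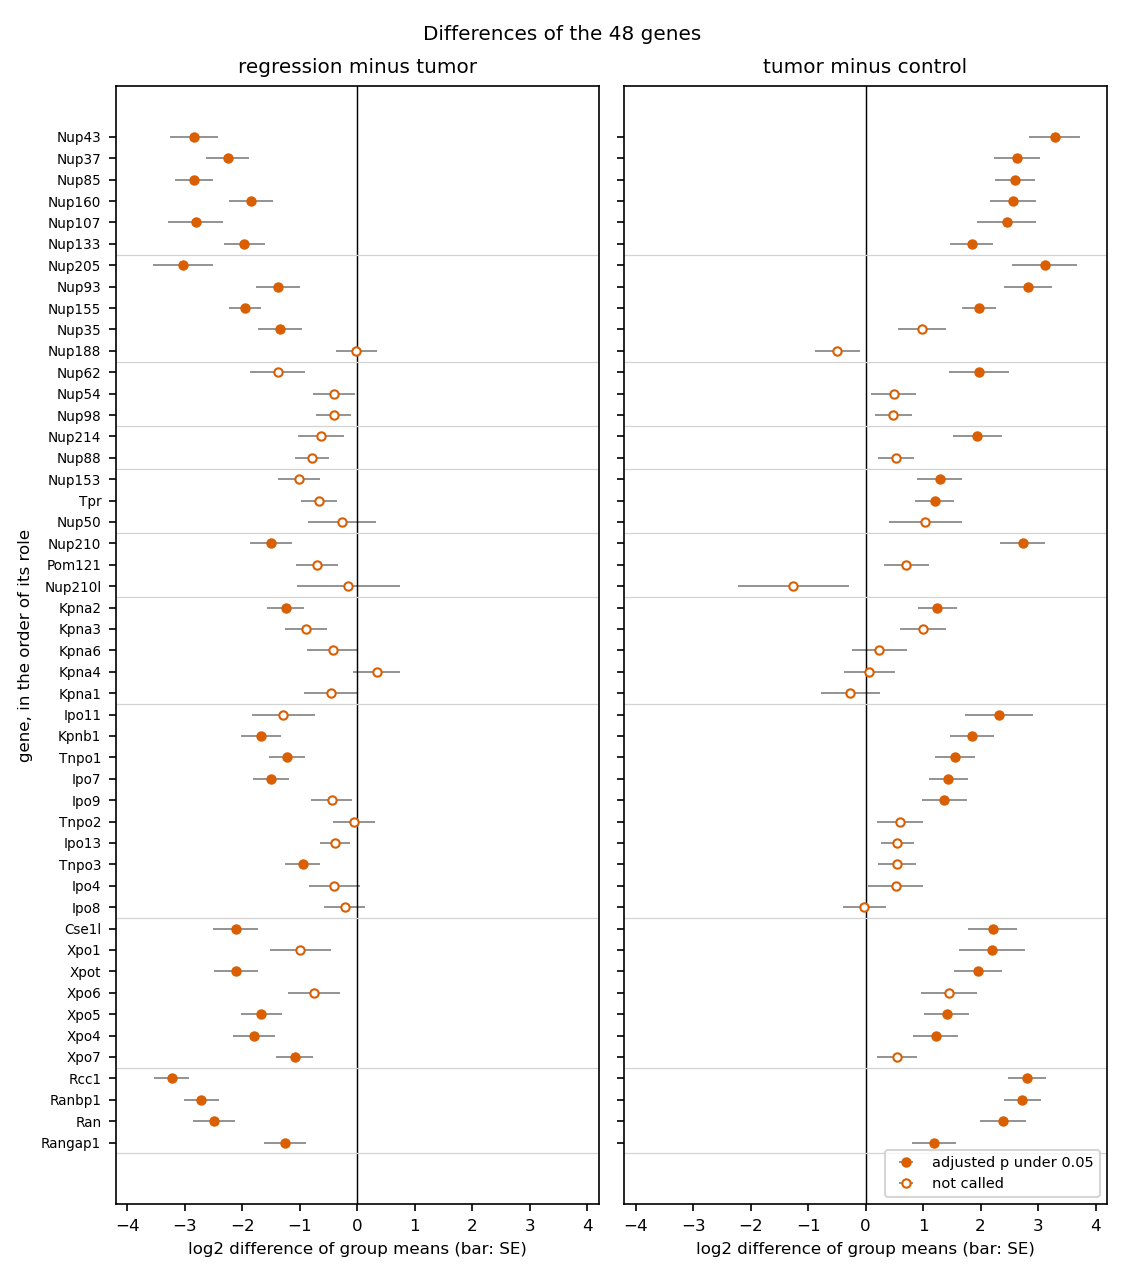
The plot gives the log2 difference of group means (x axis, with standard error bars) for each of the 48 genes, in regression minus tumor on the left and tumor minus control on the right. Filled points passed an adjusted p under 0.05, and the 6 outer ring genes and the 4 Ran cycle genes are filled on both sides.

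The inner ring links the scaffold to the membrane and to the channel. On the probes used it had 3 of 5 genes higher in tumor and 4 of 5 lower in regression. The shares of all genes were 9.42% and 8.37%. Nup93, the hub that holds the inner ring and its channel nucleoporins together, had 1.39, 0.46, -0.21 and 0.21 in regression, 1.74, 1.92, 1.57 and 2.14 in tumor, -1.13, -0.28, -1.47 and -1.49 in pre-tumor and -1.22, -0.39 and -1.34 in control samples. Regression arrays lay between tumor and control and overlapped with neither. Nup93 was 7.10-fold higher in tumor than in control samples (log2 2.83 ± 0.42, adjusted p = 0.000191) and changed by -1.38 ± 0.39 in regression (adjusted p = 0.0218). The call in regression ended without tumor 2, tumor 4, regression 2, regression 3 or regression 4 (adjusted p 0.0518 to 0.0790).

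Nup155, which contacts the pore membrane, had -0.90, -0.89, -0.89 and -1.25 in regression, 1.04, 0.99, 0.51 and 1.38 in tumor, -0.67, -0.60, -0.29 and -1.02 in pre-tumor and -1.08, -0.85 and -1.04 in control samples. Tumor arrays were above 0.5 and the other groups all below -0.2. The differences were -1.96 ± 0.28 in regression against tumor and 1.97 ± 0.30 in tumor against control (adjusted p = 0.000227 and 0.000247). Nup205, a large scaffold partner of Nup93, was well above background on 3 of 4 regression, 4 of 4 tumor, 3 of 4 pre-tumor and 0 of 3 control arrays. Its log2 signals were -2.75, -2.99, -5.44 and -3.25 in regression, -0.48, -0.46, -0.81 and -0.55 in tumor, -2.24, -3.33, -4.12 and -2.40 in pre-tumor and -3.68, -3.75 and -3.64 in control samples. It was at least 4.87-fold higher in tumor than in control samples (adjusted p = 0.00109, measured means -0.58 ± 0.16 and -3.69 ± 0.06, SD), and changed by -3.03 ± 0.53 in regression (adjusted p = 0.000968).

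Nup35, a membrane-binding member, had -1.62, -2.43, -2.74 and -2.31 in regression, -1.07, -0.78, -1.61 and -0.25 in tumor, -2.38, -2.74, -2.78 and -1.56 in pre-tumor and -1.54, -1.77 and -2.41 in control samples. Tumor and regression arrays did not overlap, with tumor 3 and regression 1 almost level. It changed by -1.35 ± 0.39 in regression (adjusted p = 0.0235), while tumor against control gave 0.98 ± 0.42 (adjusted p = 0.131). The regression call ended without tumor 2, tumor 4, regression 2, regression 3 or regression 4 (adjusted p 0.0539 to 0.0811). Nup188, the paralog of Nup205, differed by -0.49 ± 0.39 in tumor against control (adjusted p = 0.456) on its brightest probe, and its other probes are described below with those of the other genes.

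The remaining nucleoporins were less uniform. Among the channel genes 1 of 3 rose in tumor, of the cytoplasmic filament genes 1 of 2, of the nuclear basket genes 2 of 3 and of the membrane nucleoporins 1 of 3. Of all genes 9.42% rose. In regression 1 of these 11 genes fell, Nup210, a share close to the 8.37% of all genes that fell. Nup62, a channel nucleoporin that binds importin beta, had 1.66, 0.97, 0.66 and 1.06 in regression, 2.84, 2.72, 1.32 and 3.02 in tumor, 0.81, 0.13, 1.20 and -0.26 in pre-tumor and 1.26, 0.84 and -0.62 in control samples. Tumor 3 lay well below the other tumor arrays, within the regression range but above all control arrays. The difference in tumor against control was 1.98 ± 0.52 (adjusted p = 0.0149, 0.101 without control 3), and -1.39 ± 0.48 in regression against tumor (adjusted p = 0.0619).

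Nup98, a mobile channel nucleoporin, had 1.55, 1.76, 1.89 and 2.33 in regression, 2.32, 2.33, 2.53 and 2.01 in tumor, 1.93, 1.88, 1.65 and 0.97 in pre-tumor and 1.53, 2.10 and 1.80 in control samples. Nup54, a partner of Nup62, had -0.19, -0.84, -0.85 and -1.16 in regression, -0.15, 0.05, -1.30 and -0.02 in tumor, -0.31, -1.01, 0.23 and -0.29 in pre-tumor and -0.86, -1.09 and -0.57 in control samples. Both genes overlapped between tumor and control, and tumor 3 was the lowest of all arrays for Nup54. They differed by 0.49 ± 0.33 and 0.49 ± 0.40 in tumor against control (adjusted p = 0.358 and 0.467). On the cytoplasmic side, Nup214, a docking site for exportin complexes, had 2.51, 2.04, 1.40 and 1.89 in regression, 2.64, 2.94, 1.91 and 2.89 in tumor, 0.66, 1.48, 1.45 and 0.12 in pre-tumor and 0.85, 1.08 and 0.01 in control samples. Its regression arrays overlapped with tumor and lay wholly above control. It rose by 1.95 ± 0.43 in tumor (adjusted p = 0.00454) and differed by -0.63 ± 0.40 in regression against tumor (adjusted p = 0.369). Nup88, its partner, had -0.24, 0.70, -0.12 and 0.17 in regression, 1.00, 0.74, 1.1 and 0.84 in tumor, 0.56, 0.76, 0.44 and 0.05 in pre-tumor and 0.45, 0.66 and 0.05 in control samples. Tumor lay above regression and control without overlap, and pre-tumor 2 reached the tumor range. It differed by 0.53 ± 0.32 and -0.79 ± 0.29 in the same comparisons, each short of the threshold (adjusted p = 0.295 and 0.0831).

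At the nuclear basket, Tpr, the coiled-coil protein that forms its filaments, had 1.57, 1.15, 1.15 and 0.94 in regression, 1.93, 1.90, 1.92 and 1.77 in tumor, 0.43, 0.96, 1.1 and -0.23 in pre-tumor and 0.79, 0.69 and 0.54 in control samples. The 4 tumor arrays lay close together and above all others. Tpr rose by 1.20 ± 0.33 (adjusted p = 0.0208) and differed by -0.67 ± 0.31 in regression (adjusted p = 0.179). Nup153, which anchors the basket, had 1.51, 1.12, 0.78 and 0.13 in regression, 1.96, 1.72, 1.63 and 2.31 in tumor, 0.42, 0.57, 1.22 and -0.26 in pre-tumor and 0.57, 0.50 and 0.78 in control samples. Tumor again did not overlap with any group, and the difference was 1.29 ± 0.39 in tumor against control (adjusted p = 0.0331) and -1.02 ± 0.36 in regression against tumor (adjusted p = 0.0692). The rise of Tpr ended without control 2, control 3, tumor 1 or tumor 2 (adjusted p 0.0503 to 0.0744), and that of Nup153 without any 1 of the control arrays or without tumor 1, tumor 2 or tumor 4 (0.0557 to 0.0980). Nup50, a basket nucleoporin that helps take apart import complexes, had 3.34, 2.93, 2.04 and 2.62 in regression, 3.67, 3.75, 1.15 and 3.43 in tumor, 2.04, 2.31, 3.48 and 1.87 in pre-tumor and 2.78, 2.28 and 0.81 in control samples. Tumor 3 and control 3 were the lowest arrays. Nup50 differed by 1.04 ± 0.64 in tumor against control (adjusted p = 0.310).

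Among the membrane nucleoporins, Nup210, a glycoprotein of the pore membrane, had 0.65, 0.41, 0.38 and 0.19 in regression, 2.31, 1.73, 2.17 and 1.45 in tumor, -0.20, 1.21, 0.10 and -0.57 in pre-tumor and -0.72, -0.60 and -1.12 in control samples. Regression arrays lay below all tumor arrays and above all control arrays. It was 6.64-fold higher in tumor than in control samples (log2 2.73 ± 0.39, adjusted p = 0.000147) and changed by -1.51 ± 0.36 in regression (adjusted p = 0.00923). Pom121, another anchor in the membrane, had -1.0, -0.80, 0.05 and -0.64 in regression, -0.32, -0.33, 1.12 and -0.07 in tumor, -0.76, -0.83, -1.42 and -0.93 in pre-tumor and -0.86, -0.64 and -0.32 in control samples. Tumor 3 was the highest array, and the groups overlapped at the lower tumor values. Pom121 differed by 0.71 ± 0.39 in tumor against control (adjusted p = 0.254). Nup210l, a paralog of Nup210, had -4.35, -2.08, -1.41 and -1.01 in regression, -2.26, -0.66, -3.27 and -2.03 in tumor, -0.91, -0.78, -4.13 and -0.53 in pre-tumor and -2.48, 0.06 and 0.03 in control samples. Its groups overlapped widely, and it differed by -1.26 ± 0.96 (adjusted p = 0.429).

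Importin alpha adaptors, which bind the classical nuclear localization signal, showed 1 change among 5 genes on the probes used. Of all genes 9.42% rose in tumor against control and 8.37% fell in regression against tumor. Kpna2, an adaptor known for high levels in proliferating cells, had 2.85, 2.38, 2.12 and 1.99 in regression, 3.31, 3.83, 3.24 and 3.94 in tumor, 2.02, 2.08, 2.36 and 1.27 in pre-tumor and 2.46, 2.39 and 2.14 in control samples. All tumor arrays were above 3.2 and all others below 2.9. It rose by 1.25 ± 0.34 in tumor (adjusted p = 0.0196), against pre-tumor by 1.65 ± 0.32 (adjusted p = 0.00143), and changed by -1.25 ± 0.32 in regression (adjusted p = 0.0126). Its rise against control ended without control 2, control 3 or tumor 2 (adjusted p 0.0521 to 0.0768). That call also ended with slide as a block, with the mean of all probes and without the high-E1A arrays (0.0610 to 0.0634). The call against pre-tumor ended without the high-E1A arrays (0.0582), and the regression call with median centring (0.0660). The other Kpna2 probe, above background on all 15 arrays, was called in no comparison. It gave 1.57 against control, 1.45 against pre-tumor and -1.65 in regression (adjusted p = 0.147, 0.139 and 0.0991).

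The other adaptors did not pass in any comparison on the probes used. Another probe of Kpna3, well above background on all 15 arrays, was called lower in regression than in tumor (-1.02, adjusted p = 0.0364). A further Kpna3 probe, at -0.84, was not called (adjusted p = 0.174). Kpna3 had 2.64, 2.07, 1.53 and 1.41 in regression, 2.80, 2.77, 2.50 and 3.15 in tumor, 1.78, 1.91, 2.58 and 1.18 in pre-tumor and 2.33, 1.59 and 1.49 in control samples. Tumor lay above control without overlap, and regression 1 and pre-tumor 3 reached the tumor range. The difference in tumor against control was 1.00 ± 0.40 (adjusted p = 0.103). Kpna1, Kpna4 and Kpna6 differed by -0.26, 0.06 and 0.24, with standard errors of 0.44 to 0.51. Each of these differences was smaller than its standard error. Kpna1 had -1.67, -2.19, -2.53 and -1.89 in regression, -2.59, -2.43, -0.68 and -0.76 in tumor, -1.26, -1.94, -1.42 and -0.73 in pre-tumor and -0.61, -1.76 and -1.68 in control samples, with tumor 1 and tumor 2 well below the other tumor arrays. Kpna6 had 1.68, 1.20, 0.31 and 1.05 in regression, 1.57, 2.00, 0.44 and 1.94 in tumor, 1.24, 1.90, 2.19 and 1.27 in pre-tumor and 1.66, 1.75 and 0.33 in control samples, with overlapping groups.

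**Figure D3:**
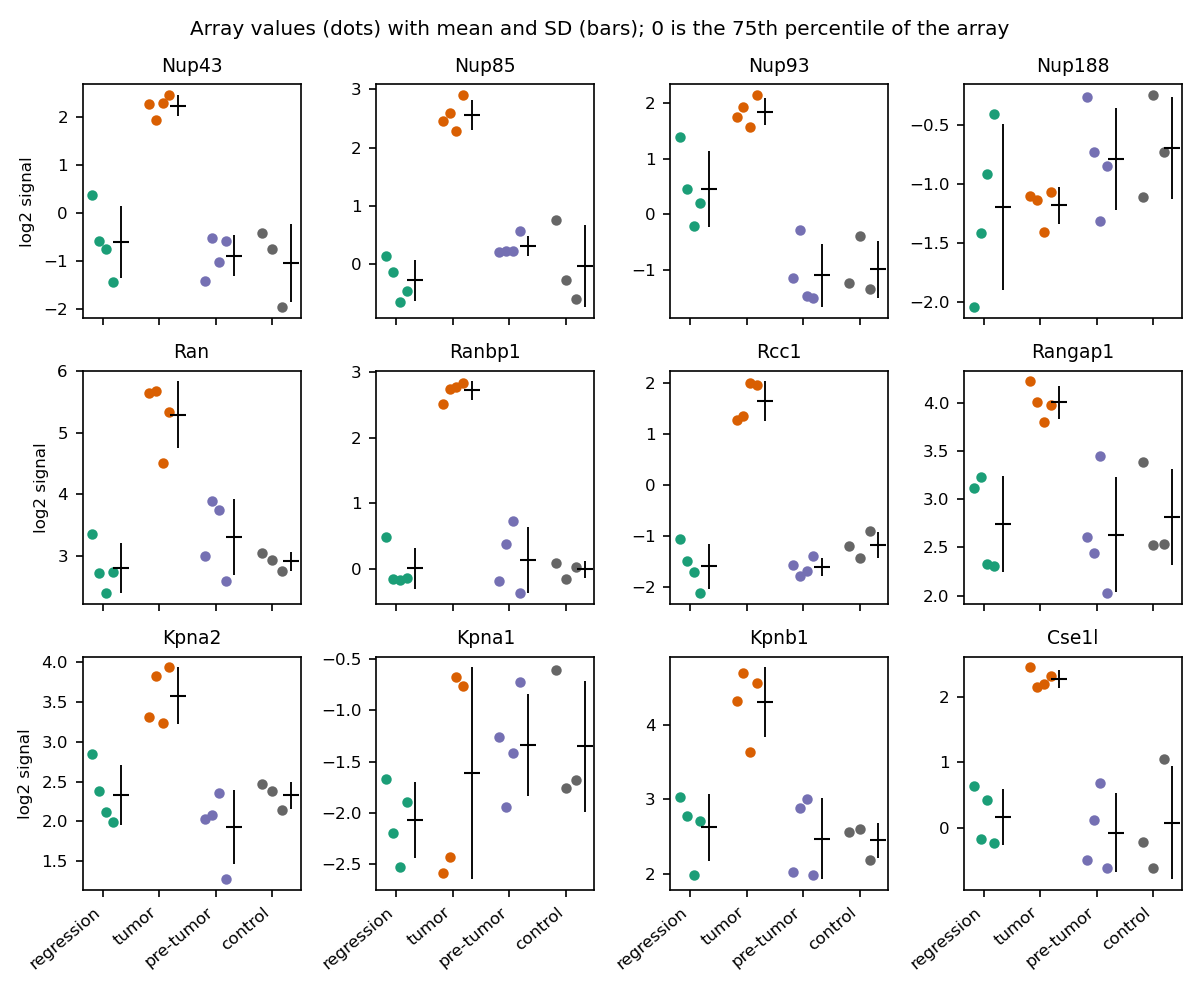
Each panel shows 1 gene, with the log2 signal of each array as a dot (regression, tumor, pre-tumor and control from left to right) and the group mean and SD as a bar beside the dots. The tumor dots of Ran, Ranbp1, Rcc1, Nup43 and Nup85 stand clear of the other groups, Nup93 regression dots lie between tumor and control, and Nup188 and Kpna1 show overlapping groups.

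Of the importin beta type receptors, 5 of 10 rose in tumor and 4 of 10 fell in regression, against 9.42% and 8.37% of all genes. Kpnb1, importin beta itself, which carries importin alpha with its cargo, had 3.03, 2.77, 1.98 and 2.71 in regression, 4.32, 4.69, 3.63 and 4.56 in tumor, 2.02, 2.88, 3.00 and 1.98 in pre-tumor and 2.55, 2.60 and 2.18 in control samples. Tumor arrays were all above 3.6 and no other array exceeded 3.1. Kpnb1 rose 3.61-fold (log2 1.85 ± 0.38, adjusted p = 0.00288) and changed by -1.68 ± 0.35 in regression (adjusted p = 0.00385).

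Tnpo1, transportin, which imports RNA-binding proteins such as hnRNPs, had 1.06, 0.65, 0.60 and 0.62 in regression, 1.68, 2.00, 2.03 and 2.11 in tumor, 0.12, 0.99, 0.87 and 0.41 in pre-tumor and 0.16, -0.06 and 1.11 in control samples. Ipo7, an importer of ribosomal proteins and histone H1, had 1.83, 1.55, 1.54 and 1.44 in regression, 2.92, 2.81, 3.59 and 3.03 in tumor, 1.48, 1.53, 1.85 and 0.94 in pre-tumor and 1.21, 1.48 and 2.24 in control samples. For both genes tumor arrays lay above all other arrays, and control 3 was the highest control. Tnpo1 differed by -1.22 ± 0.32 in regression against tumor and 1.55 ± 0.34 in tumor against control (adjusted p = 0.0139 and 0.00479) and Ipo7 by -1.50 ± 0.32 in regression against tumor and 1.44 ± 0.34 in tumor against control (adjusted p = 0.00378 and 0.00758).

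Ipo11, an importer of ubiquitin-conjugating enzymes, had 0.23, -0.23, -0.63 and -0.52 in regression, 1.43, 1.40, -0.46 and 1.65 in tumor, -0.41, 0.02, 0.45 and -0.66 in pre-tumor and -0.60, -0.49 and -2.85 in control samples. Control 3 was more than 2 log2 units below the other controls, and tumor 3 lay among the regression arrays. Its difference of 2.32 ± 0.59 in tumor against control (adjusted p = 0.0121) was 1.55 without control 3 (adjusted p = 0.0822), and regression against tumor gave -1.29 ± 0.55 (adjusted p = 0.135). Ipo9, a carrier of histones H2A and H2B, was higher in tumor by 1.37 ± 0.39 (adjusted p = 0.0231), a call that ended without control 2, control 3, tumor 1 or tumor 2 (0.0628 to 0.112).

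Tnpo3, which imports splicing factors rich in serine and arginine, had 1.76, 2.00, 0.74 and 1.47 in regression, 2.47, 2.56, 2.30 and 2.46 in tumor, 1.95, 1.96, 2.21 and 1.45 in pre-tumor and 1.88, 2.04 and 1.76 in control samples. Tumor arrays were the highest group and regression 3 was the lowest array. The change in regression was -0.95 ± 0.31 (adjusted p = 0.0425), and tumor against control gave 0.56 ± 0.33 (adjusted p = 0.294). The call ended without control 2, pre-tumor 1, pre-tumor 2, regression 3, regression 4 or any 1 tumor array (adjusted p 0.0523 to 0.151). Ipo4, Ipo8, Ipo13 and Tnpo2 were called in no comparison, with log2 differences of -0.02 to 0.60 in tumor against control.

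Exportins had 5 of 7 genes higher in tumor and 5 of 7 lower in regression, against 9.42% and 8.37% of all genes. Cse1l, which returns importin alpha to the cytoplasm, had 0.64, -0.18, 0.42 and -0.23 in regression, 2.45, 2.15, 2.19 and 2.32 in tumor, -0.50, 0.12, 0.68 and -0.62 in pre-tumor and -0.22, -0.61 and 1.04 in control samples. The tumor arrays lay close together, and control 3 was the highest of the others. Cse1l rose 4.62-fold (log2 2.21 ± 0.43, adjusted p = 0.00168) and changed by -2.12 ± 0.39 in regression (adjusted p = 0.00161).

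Xpot, the tRNA exporter, had 0.42, -0.17, -0.45 and 0.10 in regression, 2.48, 2.36, 1.27 and 2.21 in tumor, 0.00, 1.06, 1.22 and 0.27 in pre-tumor and 0.17, 0.62 and -0.43 in control samples. Tumor 3 was close to the highest pre-tumor array, and no groups overlapped with tumor. The differences were -2.11 ± 0.38 in regression against tumor and 1.96 ± 0.41 in tumor against control (adjusted p = 0.00139 and 0.00347). Xpo5, the exporter of microRNA precursors, had -0.73, -1.27, -1.92 and -1.47 in regression, 0.25, -0.01, 0.14 and 0.91 in tumor, -0.82, -1.49, -0.19 and -1.33 in pre-tumor and -0.76, -1.23 and -1.27 in control samples. Tumor arrays lay above every other array, with pre-tumor 3 next, and the differences were -1.67 ± 0.36 in regression against tumor and 1.41 ± 0.39 in tumor against control (adjusted p = 0.00452 and 0.0204). The rise of Xpo5 ended without control 2, control 3 or tumor 4 (adjusted p 0.0528 to 0.0765).

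Xpo4, the exporter of the translation factor eIF5A, had -1.14, -1.79, -1.98 and -1.67 in regression, -0.03, -0.09, -0.04 and 0.78 in tumor, -1.28, -1.48, -1.62 and -0.92 in pre-tumor and -0.19, -1.21 and -1.80 in control samples. Tumor 4 and control 1 stood above the rest of their groups. Xpo4 changed by -1.80 ± 0.36 in regression (adjusted p = 0.00297) and rose by 1.22 ± 0.39 in tumor (adjusted p = 0.0449), the second call ending without any 1 array other than control 1, pre-tumor 3, pre-tumor 4 and regression 1 (0.0538 to 0.213). Xpo7, an exportin with a broad set of cargoes, had 1.36, 0.73, 0.28 and 0.57 in regression, 1.85, 2.06, 1.33 and 2.07 in tumor, 1.08, 1.75, 1.72 and 1.19 in pre-tumor and 1.57, 1.43 and 0.84 in control samples. Regression 1 overlapped with tumor 3, and tumor overlapped with control. The change in regression was -1.09 ± 0.33 (adjusted p = 0.0293) and ended without tumor 1, tumor 2, tumor 4, regression 2, regression 3 or regression 4 (0.0682 to 0.0988).

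Xpo1, the main exporter of proteins with a leucine-rich export signal, had 0.99, 0.87, -0.37 and 0.77 in regression, 2.15, 2.13, -0.21 and 2.18 in tumor, -0.16, 0.68, 1.71 and 0.81 in pre-tumor and -0.61, -0.60 and -0.73 in control samples. Controls were tight and lowest, while tumor 3 lay far below the other tumor arrays and below all pre-tumor arrays. The rise against control was 2.21 ± 0.57 (adjusted p = 0.0139, 0.0503 without control 3), and regression against tumor gave -1.0 ± 0.53 (adjusted p = 0.264). Xpo6, the exporter of actin with profilin, differed by 1.46 ± 0.49 (adjusted p = 0.0534), and 1 tumor array at 0.85 stood above the other 3 tumor arrays between -0.93 and -0.87.

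Before tumors were present, no pore or transport gene passed the threshold. None of the 48 passed in pre-tumor against control, as none of all 19233 genes did (0% in either direction by limma). At an unadjusted p under 0.05 there were 2 of the 48, Nup210 and Xpo1, and 509 of all genes. The log2 difference was 0.95 ± 0.39 for Nup210 and 1.40 ± 0.57 for Xpo1 (adjusted p = 1.00 for both). In both genes all pre-tumor arrays lay above all controls, which held for 2.03% of all genes. The median over the 48 was 0.06, against -0.03 over all genes, and -0.07 to 0.40 within slides. No member was called under any alternative setting run.

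Tumor against pre-tumor, where both groups carry the transgene off doxycycline, also gave 29 of 48 genes higher and none lower, where 10.0% of all genes rose and 9.22% fell. The median was 1.40, against -0.13 over all genes, and 26 genes rose in this comparison and against control. The 2 comparisons share the tumor arrays. Nup35, Pom121 and Xpo6 passed only here on the probes used, with 1.44 ± 0.39, 1.09 ± 0.36 and 1.53 ± 0.45 (adjusted p = 0.0142, 0.0459 and 0.0247). Another probe of Pom121 was called higher against control (1.21), while a further one, at 0.08, was not. The call of Pom121 ended in 11 of the 15 fits that left out 1 array (adjusted p 0.0514 to 0.134), and that of Xpo6 without pre-tumor 1, pre-tumor 4 or tumor 3 (0.0593 to 0.0755). Ipo11, Ipo9 and Xpo1 passed only against control on the probes used, and the difference between these comparisons was not tested. Other probes of Ipo11 were called higher than in pre-tumor samples, with 1.43 and 1.90, and a further one, at -0.69, was not. Next to Nup107, whose bound is given above, the largest differences were 3.24 ± 0.31 for Rcc1, 3.13 ± 0.41 for Nup43, 2.93 ± 0.39 for Nup93 and 2.59 ± 0.30 for Ranbp1. Without the 4 arrays with high E1A signals 15 genes passed, the median with normexp was 0.59, and within the 4 slides the median difference of the 48 genes was between 0.96 and 1.73.

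After 72 h back on doxycycline most of these genes were lower than in tumor. In regression against tumor, 25 of 48 genes fell and none rose, where 8.37% of all genes fell, 8.45% rose and 16.8% changed in either direction. The median difference was -1.24, against -0.12 over all genes, and 47 of 48 differences were below 0. All 4 regression arrays lay below all 4 tumor arrays for 28 of the 48 genes, which held for 12.8% of all genes. Within the 4 slides the median ranged between -1.74 and -0.96, and with normexp it was -0.62. Without the 4 arrays with high E1A signals 21 genes fell, with the calls of Nup35, Nup93, Tnpo3 and Xpo7 ended.

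Of the 29 genes that rose in tumor against control, 22 fell in regression (75.9%), and these made up 88% of the 25 that fell. Both comparisons use the same tumor arrays. No matching overlap over all genes is given here, so the 75.9% and 88% cannot be read as a trait of these genes. The 7 others that rose, on the probes used, were Ipo11, Ipo9, Nup153, Nup214, Nup62, Tpr and Xpo1. They differed by -1.39 (Nup62) to -0.45 (Ipo9) in regression against tumor. Other probes of Ipo11 (-1.50 and -2.04, above background on 14 and 4 arrays), Nup153 (-1.09) and Tpr (-1.10) were called lower in regression. A further probe of Ipo11 and the remaining probes of Nup153, Nup214 and Xpo1 were not. Nup35, Tnpo3 and Xpo7 fell in regression without having passed in tumor against control. Called in none of the 5 comparisons on the probes used were 14 genes: Ipo13, Ipo4, Ipo8, Kpna1, Kpna3, Kpna4, Kpna6, Nup188, Nup210l, Nup50, Nup54, Nup88, Nup98 and Tnpo2.

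**Figure D4:**
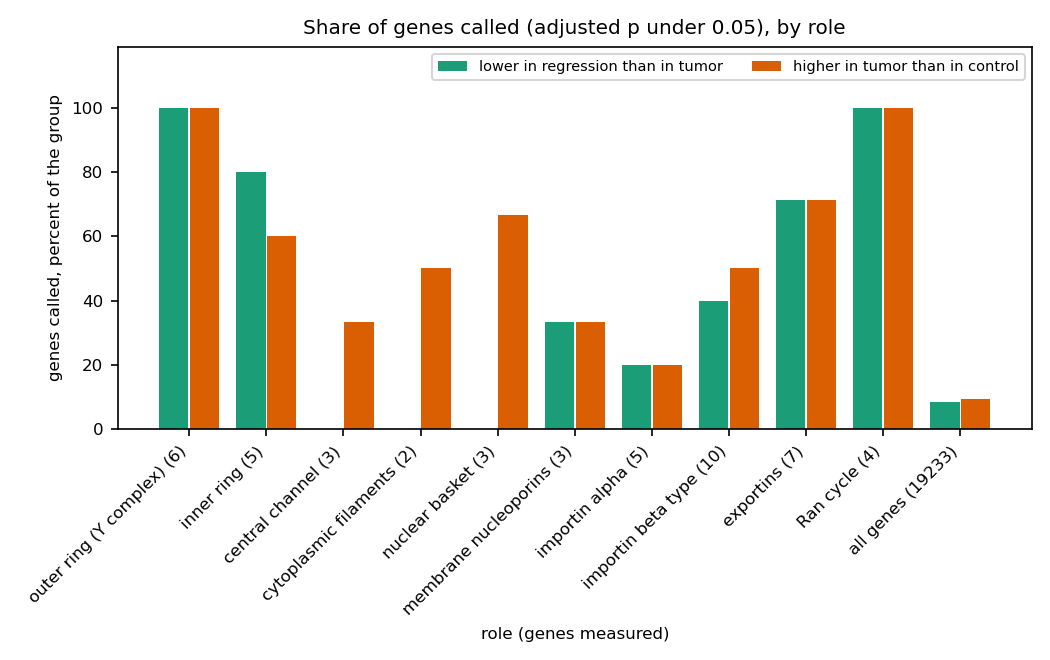
The bars give, for each role, the percent of measured genes lower in regression than in tumor (green) and higher in tumor than in control (orange) at an adjusted p under 0.05, with the number of genes in brackets. The 6 outer ring genes with a Nup symbol (without Sec13 and Seh1l) and the Ran cycle stand at 100 percent on both, channel, filament and basket genes have no bar for regression, and all genes stand at 8.37 and 9.42 percent.

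Regression tissue against control liver separated few of these genes. Nup93 alone was called, where 5.12% of all genes rose, 3.27% fell and 8.39% changed in either direction. Its difference was 1.44 ± 0.42 (adjusted p = 0.0448). All 4 of its regression arrays lay above all 3 control arrays, which held for 5 of the 48 genes and 10.3% of all genes. The call of Nup93 ended without control 1, control 3, pre-tumor 1, tumor 1, tumor 2, regression 1, regression 2 or regression 4 (adjusted p 0.0587 to 0.151). It also ended in 6 of the 12 other settings: quantile normalization with and without normexp, no filter, slide as a block, only the 2 groups compared and without the arrays with high E1A signals (adjusted p 0.0511 to 0.160). Nup210 and Nup214 were next, with 1.22 ± 0.39 and 1.31 ± 0.43 (adjusted p = 0.0686 and 0.0714). The median over the 48 genes was 0.08, against -0.24 over all genes, and -0.26 to 0.72 within slides. The outer ring genes other than Nup107 lay between -0.24 and 0.71, and Rcc1 at -0.41 ± 0.33, Ran at -0.11 ± 0.40 and Ranbp1 at 0.01 ± 0.32. A p that misses the threshold does not show that these levels were equal.

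Several probes could be compared for many of these genes. Of the 48 genes 33 had 2 or more passing probes. In 4 of the 33 every probe was called in tumor against control and in 7 in regression against tumor, and no gene had probes called in opposite directions in tumor against control or in regression against tumor. Over the 102 passing probes 42 rose and none fell in tumor against control, and in regression against tumor 43 fell and 1, a probe of Nup210l, rose. The 2 probes of Nup43 gave 3.29 and 2.87, those of Cse1l 2.21 and 1.96, and those of Kpnb1 1.85 and 1.73 in tumor against control.

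In 9 genes the probes differed in sign in tumor against control. Nup188 is the clearest case: its brightest probe, well above background on all 15 arrays, gave -0.49, and the others, above background on 12 and 11 arrays, gave 2.48 (called) and 1.26. The probe at 2.48 was also called lower in regression than in tumor (-1.51, adjusted p = 0.00172) and higher in tumor than in pre-tumor samples (2.38, adjusted p = 1.84e-05). The probe at 1.26 was called against pre-tumor (1.28, adjusted p = 0.0462) and not in regression against tumor (-1.23, adjusted p = 0.0625). With the mean of all probes Nup188 was called higher in tumor than in control samples, by 1.08 (adjusted p = 0.0107). The 2 probes of Nup214 gave 1.95 and 0.12, both well above background on all arrays, and with the mean of both it was not called (adjusted p = 0.0945). For Xpo1 the probes beside the one used were above background on 3 and 4 arrays and gave -0.27 and -0.42. The rise of Xpo1 was not called with the mean of all its probes (adjusted p = 0.646) or without the arrays with high E1A signals (0.0765). Xpo5 had 3 probes above background on all arrays, which gave 1.41, 0.89 and 0.68, and 1 above it on 4 arrays, which gave -0.57.

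**Figure D5:**
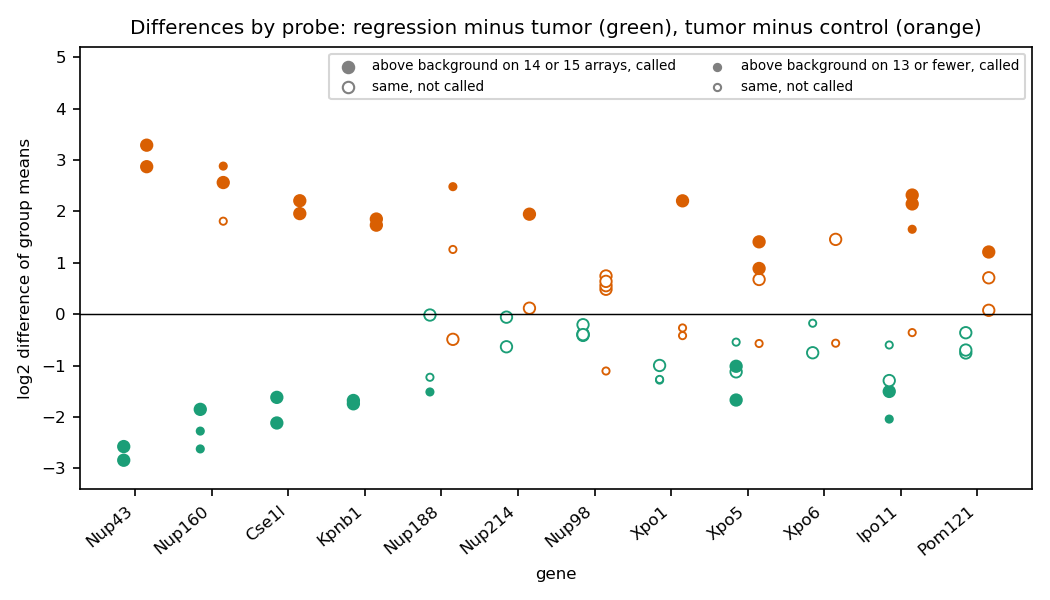
Each point is 1 probe of a gene with several probes, placed by its log2 difference in regression minus tumor (green) and tumor minus control (orange), filled where called and large where well above background on 14 or 15 arrays. The probes of Nup43, Cse1l and Kpnb1 lie close together, and those of Nup188 run between -0.49 and 2.48 in tumor minus control.

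Further pore and import genes lay outside the symbol rule. Of 4 measured genes of the same role lists, 3 rose in tumor against control: Ndc1, a membrane nucleoporin whose probe carries the older symbol Tmem48, by 2.39 ± 0.62 (adjusted p = 0.0134), Ipo5, an importin, by 2.35 ± 0.38 (adjusted p = 0.000438), and Nupl1, the channel partner of Nup62, by 1.19 ± 0.35 (adjusted p = 0.0288). Of the 4, Ipo5 alone fell in regression against tumor, with -1.97 ± 0.36 (adjusted p = 0.00128). Of 20 other pore and import factors measured, 8 fell in regression and 6 rose in tumor, with none the other way. The shares of all genes were 8.37% and 9.42%. In tumor against control 14 of the 20 did not pass, Sec13 and Seh1l among them. Nutf2, which carries Ran into the nucleus, rose by 2.41 ± 0.40 (adjusted p = 0.000541), and Aaas and Rae1 by 1.89 and 1.69. The list's median was -0.97 in regression against tumor and 0.65 in tumor against control, where all genes had -0.12 and -0.18.

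Of 21 genes of mRNA export, 6 fell in regression against tumor, where 8.37% of all genes fell, and 8 rose and 1 fell in tumor against control, where 9.42% of all genes rose and 7.01% fell. The helicase Ddx39a rose by 2.95 ± 0.41 (adjusted p = 0.000111), the adaptor Alyref by 2.06 ± 0.38 (0.00114), Ddx39b by 1.78 ± 0.33 and Thoc6 by 1.65 ± 0.31. Nxt2, a cofactor of the export receptor, was the one that fell, with -1.48 on the log2 scale (adjusted p = 0.0196). In the nuclear lamina and envelope list 4 of 14 fell and 1 rose in regression against tumor, and 5 rose and 2 fell in tumor against control. Lmnb2 and Lmnb1, the B-type lamins, rose by 3.35 ± 0.52 and 2.31 ± 0.45 and Banf1, which tethers chromatin to the envelope, by 2.46 ± 0.40 (adjusted p = 0.000293, 0.00186 and 0.000440). Sun2, a linker of the nuclear envelope to the cytoskeleton, differed by 1.86 ± 0.37 in regression against tumor and -1.76 ± 0.40 in tumor against control (adjusted p = 0.00265 and 0.00595).

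Markers of other cell types differed between regression and tumor tissue as well. In regression against tumor, 6 of 8 stellate cell and fibroblast markers rose, 5 of 8 of endothelium, 4 of 8 of macrophages, 4 of 8 of T, NK and B cells and 4 of 6 of erythroid cells. Bile duct markers rose in 1 of 6 cases and neutrophil markers in 0 of 5, and no marker of these lists was lower. Of all genes 8.45% rose. The summed signal of the macrophage list was 110 to 203 in regression, 31.1 to 50.5 in tumor, 16.1 to 40.5 in pre-tumor and 17.7 to 37.0 in control samples, and no macrophage marker was at background on every array of a group. For the stellate cell and fibroblast list it was 142 to 460 in regression, 94.6 to 202 in tumor, 42.4 to 94.1 in pre-tumor and 34.8 to 86.0 in control samples, with 1 marker above background on no tumor array. Their part in the differences of the pore and transport genes was not tested.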

How the data were processed

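The deposited scanner files hold 1-colour Cy3 intensity values of mouse Agilent arrays, read with Feature Extraction 10.5.1.1 per the file headers, and the authors' table holds log2 values of the same 15 arrays, whose normalization is not given in the sources used here. Per the labels, RNA was amplified as a whole transcriptome before labelling. The log2 of the processed signal was centred on the 75th percentile of each array, flagged outlier spots (0.452% of gene-spot values) were dropped, and probes well above background on at least 3 of 15 arrays were kept. The passing probe with the highest mean signal stood for a gene, and symbols were updated through Entrez IDs (4664 of 21335 genes). Groups came from the labels.

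The 5 comparisons were fitted with limma 3.58.1 in R 4.3.3 in 1 model of 4 groups (11 residual degrees of freedom, two-sided), with Benjamini-Hochberg adjustment over 19233 genes and a call at an adjusted p under 0.05. The fit was tested on simulated data. Genes with array values were up to 4 per role by adjusted p in tumor against control, with every gene called in regression against tumor. The genes, role lists and marker lists were chosen with earlier results of these data known. Alternatives changed the background correction (normexp on the median signal, offset 50, because the files hold no mean signal), the normalization, the filter, the probe rule, the variance model, the arrays and the terms for slide and replicate number, and used the authors' table, whose values had Spearman correlations of 0.9903 or more with the signals of their own arrays. The intensity of a probe was not set against that of another gene. Promoter windows were RefSeq sequence.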

Additional observations from a re-analysis of the deposited data

Results flagged for a closer look

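In groups of 4 arrays, an array was singled out where its gap to the nearest of the other 3 was a large part of the whole range (Dixon's rule). This picked 13 of 144 gene and group combinations. The rule is set to pick about 1 in 20 among independent normal values. The combinations share the same arrays and no share over all genes is given here, so the 13 cannot be read as an excess. Of the 13, 6 were tumor arrays and 5 of these were tumor 3, the array with the smallest share of spots well above background (46.4%). Tumor 3 was below the other tumor arrays for Ipo11 (-0.46, others 1.40 to 1.65), Nup50 (1.15, others 3.43 to 3.75), Nup54 (-1.30, others -0.15 to 0.05) and Xpo1 (-0.21, others 2.13 to 2.18), and above them for Xpo6 (0.85, others -0.93 to -0.87). Tumor 4 stood above its group for Xpo4 (0.78, others -0.09 to -0.03).

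In regression, Nup133 was high on array 2 (-1.05, others -1.77 to -1.74), Ranbp1 on array 1 (0.48, others -0.16 to -0.14) and Tnpo1 on array 1 (1.06, others 0.60 to 0.65), while Nup155 was low on array 4 (-1.25, others -0.90 to -0.89) and Xpo1 on array 3 (-0.37, others 0.77 to 0.99). In pre-tumor samples, Nup210l was low on array 3 (-4.13, others -0.91 to -0.53) and Nup85 high on array 4 (0.57, others 0.20 to 0.23). All values are log2 signals relative to the 75th percentile, and the causes were not tested.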

How the results depend on the processing

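The number of genes called in tumor against control was 29 and lay between 22 and 31 under the other settings and between 19 and 29 when 1 array was left out. In tumor against pre-tumor 29 were called, with 26 to 34 under the planned settings, 26 to 30 without 1 array and 15 without the 4 arrays with high E1A signals. In regression against tumor 25 were called, with 19 to 30 under the other settings and 20 to 27 without 1 array. In regression against control 1 was called, with 2 in the authors' table, 0 with no filter, 3 with the filter on every array of a group, 0 with slide as a block, 3 with the replicate block, 0 with only the 2 groups compared, 3 with a trended robust variance, 0 without the high-E1A arrays and 0 to 2 without 1 array. With quantile normalization the 1 gene called was Nup210, and with normexp Ipo9, in place of Nup93. In pre-tumor against control 0 were called throughout. The difference of Nup188 changed sign with the mean of all probes, to 1.08 against control (adjusted p = 0.0107) and 1.09 against pre-tumor (adjusted p = 0.00527), both for tumor. With the replicate number as a block 26 genes were called in regression against tumor, and tumor gave 30 against control and 29 against pre-tumor. The labels state no pairing, same-numbered samples on different slides correlated between -0.46 and 0.61 in their deviations from the group means, and 8 of 15 samples correlated best with their own number. Calls that held under every setting and without each array numbered 17 in regression against tumor, and for tumor 17 against control and 14 against pre-tumor. Median centring moved the median of all genes by 0.32 for tumor against control, by 0.26 for tumor against pre-tumor and by 0.30 in regression against control. With it, 68.6%, 62.4% and 72.8% of called genes were higher, where the 75th percentile gave 57.3%, 52.0% and 61.1%. Dim spots limit Nup107 and Nup205, whose control values are bounds. The cause of these changes was not tested.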
